A study of Homo sapiens with 4 samples.

Results

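The 9 genes described here carry the core of transforming growth factor beta (TGF-beta) signalling: the ligand gene TGFB1, the receptor genes TGFBR1 and TGFBR2, the signal transducers SMAD2, SMAD3 and SMAD4, the inhibitory SMAD7, and the corepressor genes SKI and SKIL. They were chosen by name, out of 19820 protein-coding genes, and every peak inside them or within 50 kb of their RefSeq bounds on hg38 was taken. Binding of ETS1 and of RUNX1 was mapped by CUT&Tag in 6T-CEM, T-ALL cells (leukaemia of immature T cells), with 2 ETS1 libraries and 2 RUNX1 libraries. CUT&Tag uses an antibody to bring the transposase Tn5 to its target, so that DNA near the bound protein is cut out and sequenced. The labels name no treatment or genetic change, and peaks of each library were called against IgG, a control antibody without a specific target. Whether libraries shared an IgG control is not stated. IgG expectations, worked out from the deposited fold and −log10 p, kept nearly the same proportion between libraries at common summits in these windows. In library 1 of ETS1 and RUNX1 they were 9.95 and 11.7 at a summit near TGFB1, and 8.78 and 10.3 at one inside SKI. A single control scaled to each library would give this. The SD of a fold would then not hold the spread of the control. The labels do not state whether the libraries of an antibody were separate cultures, and p-values and SDs therefore measure a spread between libraries that may be technical.

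TGF-beta binds the receptor encoded by TGFBR2, which recruits and activates the kinase encoded by TGFBR1. That kinase phosphorylates SMAD2 and SMAD3, which join SMAD4 and enter the nucleus to act on target genes. SMAD7 blocks the activated receptor, and SKI and SKIL (SnoN) bind SMAD complexes and repress their targets. In T cells the pathway restrains proliferation and effector function, and RUNX proteins are known DNA-binding partners of SMAD2 and SMAD3. ETS1 recognises a GGAA core and RUNX1, with its partner CBFB, recognises TGTGGT or TGCGGT.

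RUNX1 was found at the start of 8 of the 9 genes, and ETS1 at the start of 2, SMAD2 and SKIL. With a −log10 q of at least 20 required, ETS1 was at the start of 0 members and RUNX1 still at that of 8, as ETS1 library 2 had a −log10 q of 15.7 at SMAD2 and 15.3 at SKIL. The shares of all genes were not computed at this threshold. A region was counted as reproducible when peaks of both libraries of an antibody touched or overlapped in it, and as lying at a start when it touched the 1 kb on either side of a RefSeq transcript start. No start or strand was at hand for SKI, for which either end of the gene was used. The ETS1 count, 22.2% of the members, lies near the 19.0% of all protein-coding genes with ETS1 at a start, so it says nothing particular of the pathway. The RUNX1 count, 88.9%, compares with 47.2% of all protein-coding genes. A gene counts when a region lies at any of its starts, and members had more starts per gene. The 8 members with listed starts had 23 of them. All protein-coding genes had 22155, and 4008 of the 19820 genes had none listed. The part of this in the shares was not tested. Both factors were at 2 of 9 starts, against 18.7% of all genes. RUNX1 without ETS1 was at 6 of 9 (66.7%), against 28.6%. Since members were chosen with earlier results of these data known, these shares are given without a test.

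**Figure D1:**
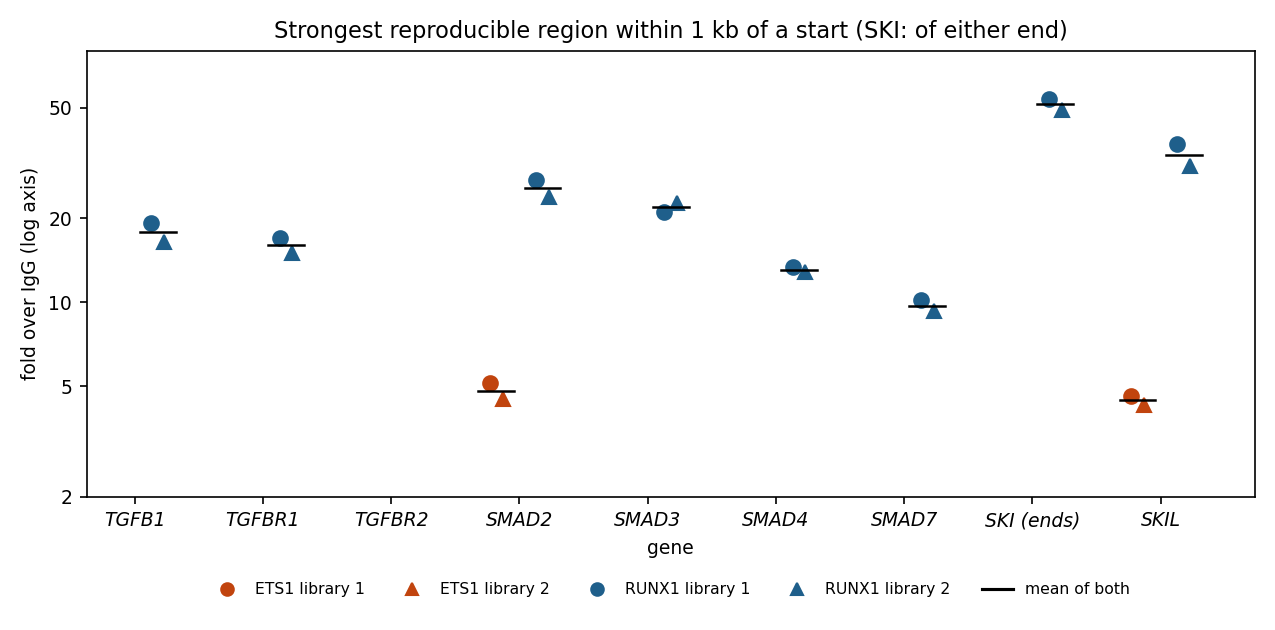
Fold enrichment over IgG (log axis) of the strongest reproducible region within 1 kb of a start of each gene, with ETS1 left of RUNX1 and the mean of both libraries as a line; for SKI either end of the gene was used. ETS1 points appear at SMAD2 and SKIL alone, at 4.26 to 5.11-fold, and RUNX1 points at 8 genes, lowest at SMAD7 and highest at SKI.

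Across the 9 windows, 1520 kb in all, there were 11 ETS1 regions and 50 RUNX1 regions, out of 5055 and 22802 in the genome. The ETS1 libraries held 13 and 12 peaks in the windows, against 56 and 60 in the RUNX1 libraries. The mean of 12.5 ± 0.707 ETS1 peaks was lower than that of 58 ± 2.83 RUNX1 peaks (SD, n = 2 each), a difference of -45.5 that exceeded the spread between libraries. It was -2.5 when each library was cut to its 5611 strongest peaks, and -28 without the SKI window. The exact permutation test of 2 against 2 libraries gave p = 0.333 (two-sided), the smallest value it can give. The windows held 0.214% and 0.214% of all ETS1 peaks and 0.221% and 0.240% of all RUNX1 peaks, so as shares of their lists the factors were close. ETS1 summits lay within 1 kb of the start of a protein-coding gene in 38.5% and 33.3% of cases, against 21.4% and 20% for RUNX1 (exact permutation p = 0.333, two-sided). The difference of 15.2 percentage points was 6.73 with a −log10 q of at least 20 (exact permutation p = 1), 24.7 in windows of 10 kb and 29.8 without the SKI window, and the order turned round, to -4.28, with equal peak numbers. Over all peaks of the libraries the shares were 60.1% and 61.4% for ETS1 and 34.7% and 34.4% for RUNX1. Of the reproducible regions in the windows, 4 of 11 for ETS1 had the strongest summit near a coding start, against 62.3% of all ETS1 regions, and 12 of 50 for RUNX1, against 36.1% of all RUNX1 regions.

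Total read numbers are not in the peak lists. The reads or fragments stacked at each summit (the pileup) were therefore worked out from the deposited fold and −log10 p. The median over all peaks was 54 and 51 for ETS1, against 75 and 71 for RUNX1, and a fold at a weak peak rests on fewer. As a check on the cell type, RUNX1 was at the start of 6 and ETS1 at the start of 4 of 7 T-lineage genes (CD3E, CD3D, CD3G, CD247, LCK, CD2 and CD7). ETS1 was at none of the 8 B-lineage, myeloid and erythroid markers and RUNX1 at 2. Over all protein-coding genes the shares were 47.2% for RUNX1 and 19.0% for ETS1, so counts over so few markers are a rough check only. Peaks do not measure expression.

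**Figure D2:**
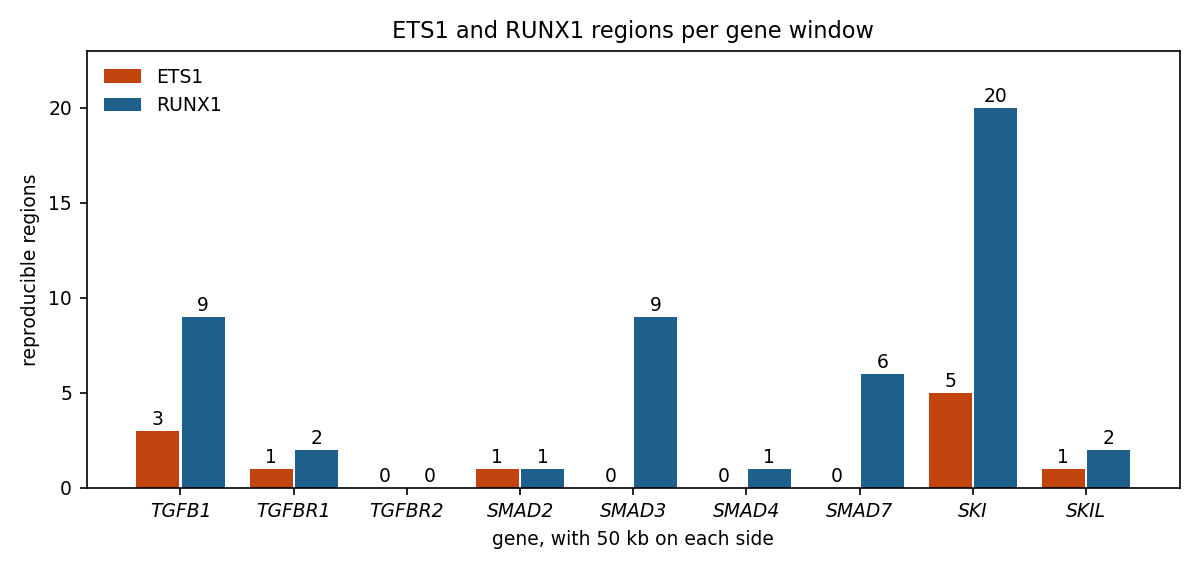
Number of reproducible ETS1 (left bars) and RUNX1 (right bars) regions in each gene with 50 kb on each side. SKI has 5 and 20, TGFB1 3 and 9, SMAD3 0 and 9, and TGFBR2 has none of either factor.

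The numbers were uneven between genes, also within a role, and totals per role rest on windows of unlike length. The windows of the corepressors held 6 ETS1 and 22 RUNX1 regions over 2 genes, those of the SMADs 1 and 17 over 4 genes, that of the ligand 3 and 9, and those of the receptors 1 and 2 over 2 genes. The SKI window alone held 45.5% of the ETS1 and 40% of the RUNX1 regions, and without it 6 ETS1 and 30 RUNX1 regions remained. Of its 5 ETS1 regions 2 had the strongest summit inside SKI. The window of SKIL, the other corepressor, held 1 ETS1 and 2 RUNX1 regions, as did that of TGFBR1. At least as many ETS1 regions as at SKI were found at 4.81% of all protein-coding genes, and at least as many RUNX1 regions at 0.283%. These counts do not allow for gene length, and the SKI window spans 181895 bp. Per 100 kb of window, SKI had more ETS1 regions than 91.1% of all genes and more RUNX1 regions than 97.8%. The median window held 1 ETS1 region for the members and 0 for all genes, and 2 RUNX1 regions for both. ETS1 was in the window of 5 of 9 members (55.6%), against 40.6% of all genes, and RUNX1 in that of 8 (88.9%), against 75.3%.

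**Figure D3:**
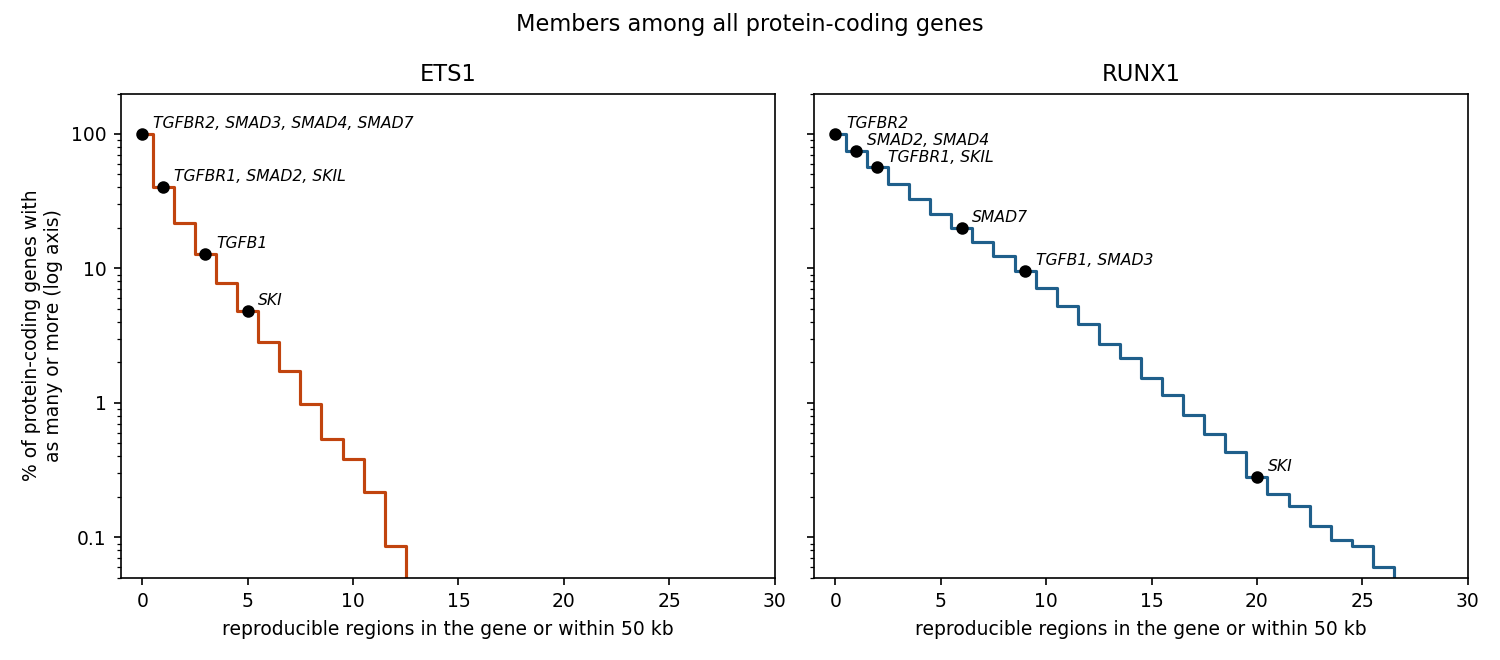
Share of all protein-coding genes (log axis) with at least the given number of reproducible regions in the gene or within 50 kb, for ETS1 (left) and RUNX1 (right), with the 9 members as points. SKI lies at 4.81% for ETS1 and 0.283% for RUNX1; 4 members have no ETS1 region and TGFBR2 has no RUNX1 region.

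The ligand gene TGFB1 lies at chr19:41330323-41353922 on the minus strand, with the starts of 5 other protein-coding genes in its window. A wide RUNX1 region, 41350555–41355048, covered its start, at 19.3 and 16.4-fold over IgG (mean 17.9 ± 2.04, SD, n = 2). The summit lay inside the gene, 2464 bp from the start in both libraries, with a pileup of 169 and 137. Its 4494 bp made it wider than 98.7% of RUNX1 regions. ETS1 had a peak within this RUNX1 region in each library, but not at the same place. In library 1 it was 4.91-fold and 1245 bp inside the gene, with a pileup of 24, and in library 2 it was 6.01-fold and 2464 bp inside, on the base of the RUNX1 summit, with a pileup of 42. As these peaks did not touch, TGFB1 was not counted as bound by ETS1 in its body.

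Reproducible ETS1 regions around TGFB1 lay outside the gene, 3 in all, each over RUNX1. At the adjacent starts of B9D2 and TMEM91, 10131 and 10187 bp before the TGFB1 start by the ETS1 summits, ETS1 had 7.03 and 6.83-fold and RUNX1 21.2 and 22.98-fold, the highest RUNX1 fold of the window. Beyond the other end of the gene, ETS1 had 4.66 and 4.26-fold and RUNX1 18.6 and 17.8-fold at 41327207–41328996, away from any coding start. At the facing starts of EXOSC5 and BCKDHA, named for their place in the window, ETS1 had 5.58 and 5.78-fold and RUNX1 6.53 and 8.46-fold. RUNX1 without ETS1 was at the start of CCDC97, with 17.5 and 16.4-fold.

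The receptor windows held 1 ETS1 and 2 RUNX1 regions, all of them at TGFBR1. TGFBR1 (chr9:99103647-99154192, plus strand) had a RUNX1 region over most of its cluster of 8 listed starts, at 99104289–99105887. It had 17.0 and 15.01-fold (mean 16 ± 1.40, SD, n = 2) and a pileup of 152 and 128. The region did not cover the listed starts at 99103647 and 99104052, which lie before it. Its summit was on the same base in both libraries, 189 bp before the nearest start. No ETS1 peak was there. The other region of the TGFBR1 window held both factors 45.1 kb before the gene, inside COL15A1, with 7.39 and 6.53-fold for ETS1 and 17.99 and 19.2-fold for RUNX1. Its ETS1 fold exceeds that of 66.4% of ETS1 regions, but its pileup of 28 and 23 exceeds that of only 1.72%, over an IgG expectation of 2.93 and 2.68.

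TGFBR2 (chr3:30606356-30694142, plus strand), which encodes the ligand-binding receptor, had no reproducible region. The 4 libraries gave 1 peak in its window, from RUNX1 library 1, over the start at 30606387–30606752. It had 3.12-fold, a −log10 q of 8.61 and a pileup of 43 over an IgG expectation of 13.1. RUNX1 library 2 and both ETS1 libraries had none. The nearest reproducible regions lay 838 kb from the gene for ETS1 and 81.9 kb for RUNX1. A weak site below the calling threshold in library 2 would not be seen at this depth.

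The SMAD genes were all marked by RUNX1 at a start, and SMAD2 also by ETS1. SMAD2 (chr18:47808957-47930872, minus strand) had its single region of each factor at the start. ETS1 had 5.11 and 4.49-fold (mean 4.803 ± 0.437, SD, n = 2) and RUNX1 27.5 and 24.0-fold (mean 25.7 ± 2.47, SD, n = 2). The ETS1 summits lay 42 bp before and 9 bp after the start, and the RUNX1 summit 48 bp before it in both libraries. The ETS1 pileup was 61 and 51, and the RUNX1 pileup 378 and 314. The SMAD2 start thus ranks lower among ETS1-bound starts, of which 29.97% had a lower fold, than among RUNX1-bound starts, of which 92.5% did. Ranks within lists of such different length do not compare the factors. By pileup the ETS1 region at SMAD2 lay near the middle, above 49.18% of ETS1 regions. Its IgG expectation was higher than at 63.96% of them. The part of IgG in its low fold rank was not tested.

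SMAD4 (chr18:51030213-51085042, plus strand), the partner shared by all activated SMADs, had RUNX1 alone. Its region, 51029801–51030901, had 13.4 and 12.8-fold (mean 13.1 ± 0.376, SD, n = 2), with summits 42 and 41 bp after the start and a pileup of 178 and 163. It was the single reproducible region of the window. No ETS1 peak of either library lay in the window, and the nearest reproducible ETS1 region was 112 kb away.

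The bases before these starts were searched for 3 motifs on both strands: the ETS core CCGGAA, the RUNX cores TGTGGT and TGCGGT, and the composite GGATGTG, which can overlap a TGTGGT. The 250 bases before each start are from RefSeq (GRCh38.p14), 5′ to 3′ on the strand of the gene, with matches in capitals. They are shown for the starts with both factors, SMAD2 (chr18:47930873-47931122) and SKIL (chr3:170357465-170357714), and for RUNX1-bound starts with a match near the summit, SMAD4 (chr18:51029963-51030212) and the internal SMAD3 start (chr15:67098429-67098678). The last pair was chosen after the matches were seen.
SMAD2: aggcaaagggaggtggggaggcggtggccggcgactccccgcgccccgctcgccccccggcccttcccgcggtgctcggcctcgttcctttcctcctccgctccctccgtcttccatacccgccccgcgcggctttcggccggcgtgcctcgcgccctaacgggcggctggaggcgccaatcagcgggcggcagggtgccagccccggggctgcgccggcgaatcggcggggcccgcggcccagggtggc
SKIL: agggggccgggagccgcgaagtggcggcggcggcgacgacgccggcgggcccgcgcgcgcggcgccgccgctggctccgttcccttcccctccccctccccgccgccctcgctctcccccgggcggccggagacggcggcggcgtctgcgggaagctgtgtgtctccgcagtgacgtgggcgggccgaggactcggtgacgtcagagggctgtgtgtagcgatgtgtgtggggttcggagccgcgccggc
SMAD4: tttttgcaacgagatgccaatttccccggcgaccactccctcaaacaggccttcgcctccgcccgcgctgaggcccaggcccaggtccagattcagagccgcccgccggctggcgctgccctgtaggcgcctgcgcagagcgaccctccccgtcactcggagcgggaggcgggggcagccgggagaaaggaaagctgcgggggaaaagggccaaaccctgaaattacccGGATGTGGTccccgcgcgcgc
SMAD3 internal start: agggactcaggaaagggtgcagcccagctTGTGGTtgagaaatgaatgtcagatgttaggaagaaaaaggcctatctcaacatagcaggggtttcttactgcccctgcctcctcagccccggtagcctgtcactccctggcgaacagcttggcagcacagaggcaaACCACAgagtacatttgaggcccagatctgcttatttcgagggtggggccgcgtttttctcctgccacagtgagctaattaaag

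Neither start with both factors held any of these motifs in the window shown. Both windows do hold the shorter GGAA on one strand or the other, which was not among the motifs searched. At SMAD2 the window takes in the RUNX1 summit, while at SKIL the summits lie before it. The SMAD4 window held the composite and an overlapping TGTGGT, at 21 to 13 bases before the start, 55 and 54 bp from the RUNX1 summits of libraries 1 and 2, and the only composite among the members. At the internal SMAD3 start, TGTGGT was found at 221 to 216 and, on the other strand, at 84 to 79 bases before the start, and the first lay 34 bp from the RUNX1 summit. Of 22155 such windows at protein-coding genes, 17.9% held the ETS core, 15.7% a RUNX core and 3.41% the composite. Among 23 windows of 8 members, 2 held the ETS core (at TGFBR1 and SMAD7), 4 a RUNX core and 1 the composite. At SMAD7 a single window, before its second start, held 2 ETS cores and a RUNX core, at a RUNX1 region without an ETS1 peak. A match is a description of the letters and does not show a site.

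SMAD3 (chr15:67065602-67195169, plus strand) had 9 RUNX1 regions and no ETS1 peak. Of the RUNX1 regions 7 lay inside the gene. The strongest, 67082793–67083463, reached 40.7 and 47.2-fold (mean 44.0 ± 4.60, SD, n = 2), higher than 97.2% of RUNX1 regions, and its summit was over 15 kb from any listed start. Its pileup was 152 and 170 over a low IgG expectation of 2.76 and 2.62, and 3.43% of RUNX1 regions had a lower one. The next was at an internal start, with 21.1 and 22.7-fold, 255 bp before that start in both libraries. Before the outermost start the nearest RUNX1 summit lay 1276 bp away, with 17.0 and 15.6-fold. The remaining regions had mean folds of 9.68 to 16.5. The nearest reproducible ETS1 region was 59.1 kb from the gene, just beyond the window.

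SMAD7 (chr18:48919853-48950965, minus strand) had 6 RUNX1 regions, 4 of them inside the gene, and no ETS1 peak. The strongest, 48939502–48941923, had 10.1 and 9.28-fold (mean 9.71 ± 0.610, SD, n = 2) and a summit 1960 and 1951 bp inside, beyond the third listed start. Around the second listed start RUNX1 had 7.01 and 6.66-fold, with summits 450 and 451 bp inside. The other 4 regions had mean folds of 4.19 to 5.65, below the 8.20-fold median of all RUNX1 regions. SMAD7 thus combined many regions with low folds, in contrast to SMAD3, where all 9 exceeded that median. The IgG expectation at the strongest SMAD7 region, whose fold exceeded that median, was 14.5 and 13.8, higher than at 80.01% of RUNX1 regions. At the other SMAD7 regions it was higher than at 42.0% to 85.0%, lowest at the second start. Their pileup was higher than at 25.6% to 45.5% of RUNX1 regions. The part of IgG or of pileup in the low folds was not tested. The nearest reproducible ETS1 region was 536 kb away.

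**Figure D4:**
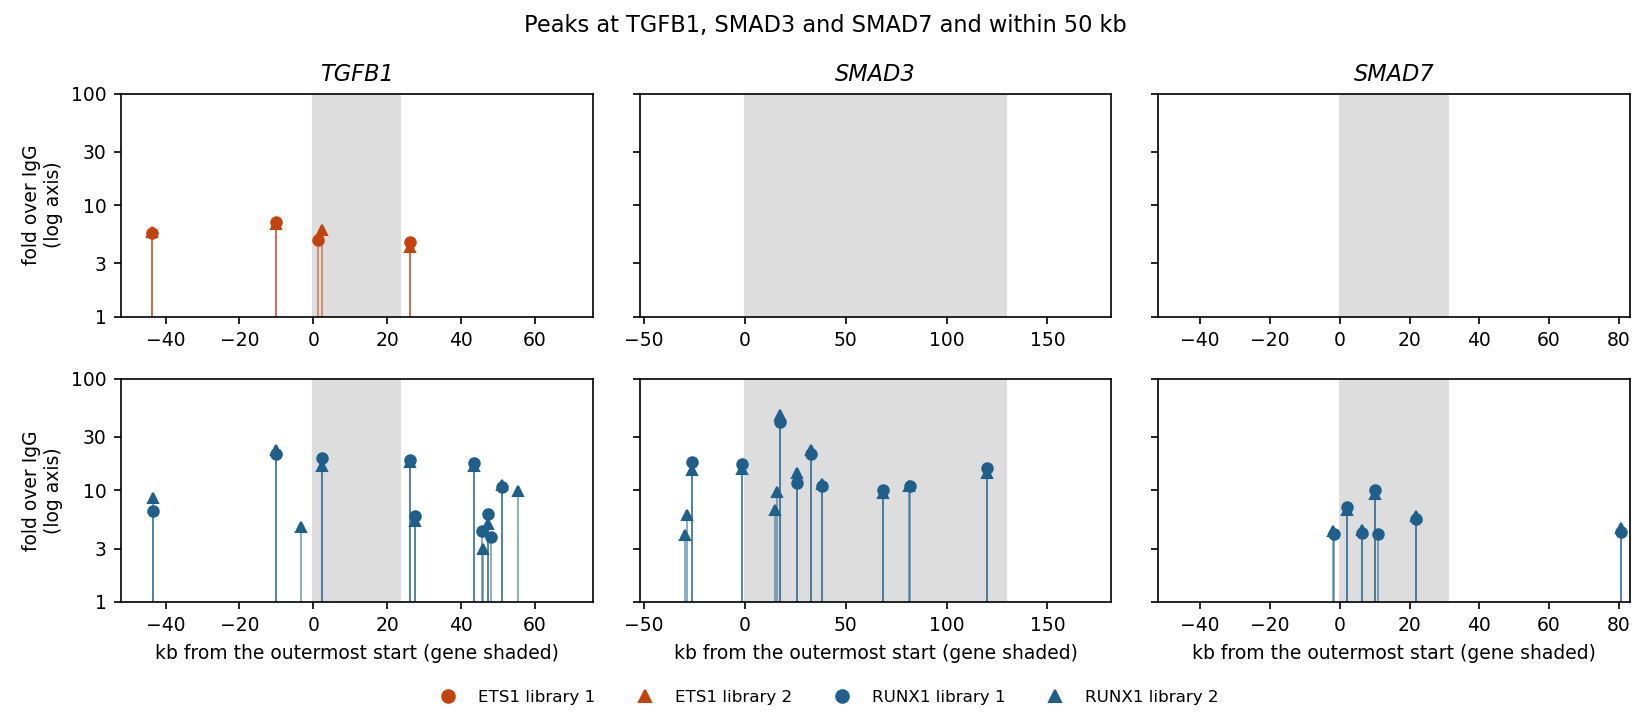
Peak summits at TGFB1, SMAD3 and SMAD7 (columns) and within 50 kb, by distance from the outermost start in the direction of transcription, with ETS1 above and RUNX1 below. Height is the fold over IgG on a log axis, symbols are libraries and shading is the gene; SMAD3 and SMAD7 have no ETS1 peak, and RUNX1 reaches 47.2-fold inside SMAD3 and 10.1-fold at SMAD7.

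The corepressor genes had the highest RUNX1 folds at a start among the members. SKIL (chr3:170357715-170396849, plus strand) had both factors at its start, in a RUNX1 region of 2598 bp. ETS1 had 4.62 and 4.26-fold (mean 4.44 ± 0.251, SD, n = 2) with summits 276 and 292 bp before the start and a pileup of 63 and 53. RUNX1 had 36.9 and 30.9-fold (mean 33.9 ± 4.24, SD, n = 2) with a summit 534 bp before the start in both libraries and a pileup of 508 and 405. The summits of the factors were 258 and 242 bp apart, against a median of 59 bp over all ETS1 regions with RUNX1. The RUNX1 fold was higher than at 95.9% of the starts with RUNX1, and the ETS1 fold higher than at 23.2% of those with ETS1. The ETS1 pileup was higher than at 51.97% of ETS1 regions, and the IgG expectation there higher than at 72.15%. The part of IgG in the low ETS1 fold rank was not tested. A second RUNX1 region, 68318 bp after the start and past the end of the gene, had 11.6 and 11.4-fold.

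SKI (chr1:2228319-2310213) was the most densely bound member. RUNX1 regions covered 23.2% of its window and ETS1 regions 2.93%, against 5.25% and 0.639% of all member windows together. Of the 20 RUNX1 regions, 12 had their strongest summit inside the gene, and 5 held ETS1. The highest RUNX1 fold was at the lower-coordinate end, at 2226398–2228083, with 53.8 and 48.9-fold (mean 51.3 ± 3.52, SD, n = 2) and summits 589 and 574 bp outside the gene. Its pileup was 461 and 400, and its fold exceeded that of 98.0% of all RUNX1 regions. ETS1 had a peak there in library 1, of 4.77-fold and a pileup of 54, and none in library 2.

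The strongest ETS1 region of all members lay inside SKI, 27630 bp from its lower-coordinate end, at 2255176–2256666. ETS1 had 19.3 and 21.1-fold (mean 20.2 ± 1.28, SD, n = 2), with a pileup of 188 and 190, and a higher fold than 98.1% of ETS1 regions. RUNX1 had 10.7 and 12.3-fold at the same place, with a pileup of 120 and 132, and a higher fold than 67.7% of RUNX1 regions. The ETS1 summits of both libraries and the RUNX1 summit of library 1 were on the same base. The IgG expectation, 8.78 and 8.03 for ETS1, lay near the middle of ETS1 regions, of which 45.9% had a lower one. It was the one shared region of the 9 windows where both ETS1 libraries had a higher fold than both RUNX1 libraries, though folds of different antibodies are not on a common scale.

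The other RUNX1 regions of SKI formed a series through the gene. A region of 6329 bp at 2297141–2303469 had 24.4 and 33.2-fold, and held ETS1 at 6.62 and 6.17-fold, with summits 815 and 1198 bp apart. Regions at 2288536–2293428 and 2235945–2238898 had 25.9 and 27.3-fold and 25.5 and 24.9-fold for RUNX1 and no ETS1. The lowest had 2.53 and 2.48-fold. Before the lower-coordinate end, outside the gene, lay 3 more shared regions, with ETS1 at mean folds of 4.06 to 7.52. All lay farther from SKI than a RUNX1 region at a start of the neighbouring gene FAAP20. The strongest of the 3 shared regions had 7.81 and 7.23-fold for ETS1 and 12.7 and 14.3-fold for RUNX1.

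**Figure D5:**
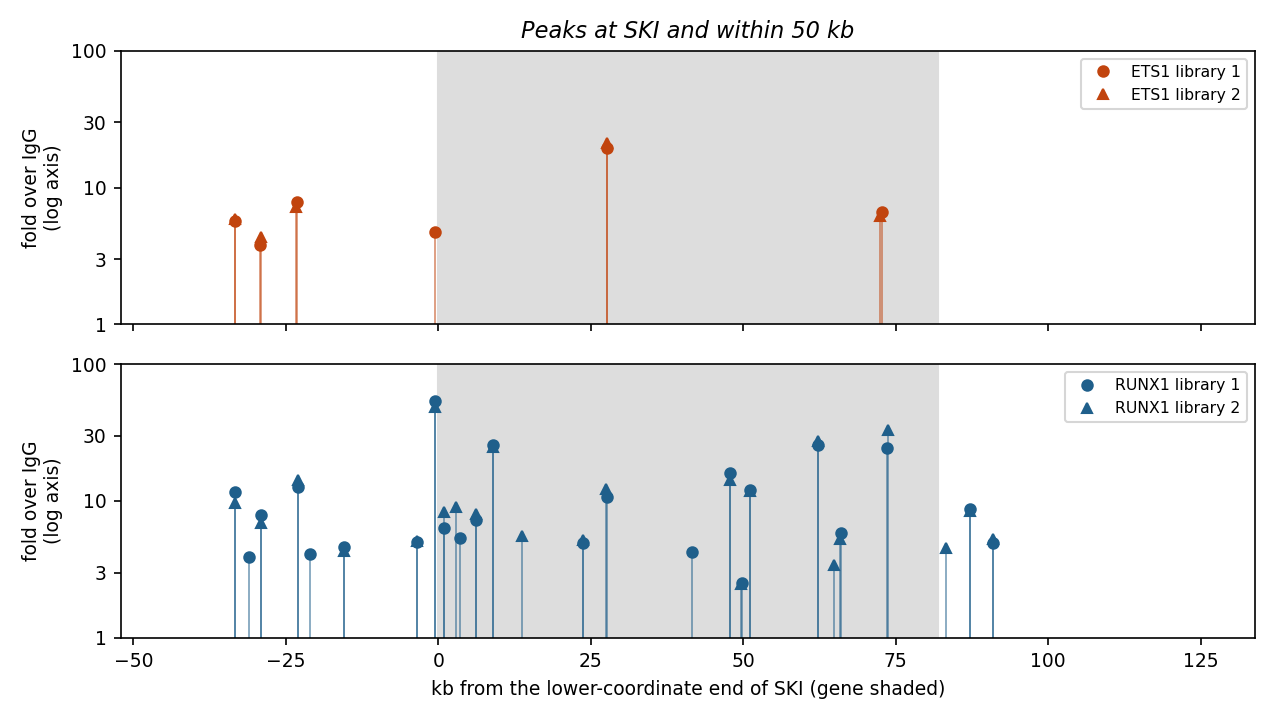
Peak summits at SKI and within 50 kb, by distance from the lower-coordinate end of the gene (shaded), with ETS1 above and RUNX1 below; height is the fold over IgG on a log axis and symbols are libraries. The highest ETS1 peaks, 19.3 and 21.1-fold, lie inside the gene, and the highest RUNX1 peaks, 53.8 and 48.9-fold, at its lower-coordinate end.

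In all windows together, each of the 11 ETS1 regions overlapped a RUNX1 region (100%, 95% Wilson interval 74.1 to 100), against 98.0% of all ETS1 regions. All 11 also lay wholly inside that RUNX1 region, a share that was not computed over the genome. Of the 50 RUNX1 regions 11 held ETS1 (22%, 12.8 to 35.2), against 20.6% of all RUNX1 regions. Both overlap shares lie near those of the genome. Intervals cover counting error only. The share of ETS1 regions was 45.5% with equal peak numbers and also with a reciprocal overlap of 50%, and 54.5% for summits within 100 bp. Shares over all ETS1 regions were not computed under these settings, so the lower values say nothing particular of the members. Summits of the factors lay 0 to 1198 bp apart, with a median of 90.5 bp over both libraries, and within 100 bp in both libraries at 5 of 11. RUNX1 regions with ETS1 had a median fold of 18.2, and the 39 without had 9.71, against 14.8 and 7.22 over all RUNX1 regions with and without ETS1. The ETS1 regions had a median fold of 5.78, close to the 5.82 of all ETS1 regions, and the RUNX1 regions 11.1, against 8.20. By the strongest region touching the 1 kb around a start, all 8 RUNX1-bound genes lay above the median of 8.46-fold for genes with RUNX1 there. At TGFB1 and SMAD7 that region had its summit farther inside, and the SMAD7 region with its summit near a start had a mean of 6.83-fold, below that median. By the same measure both ETS1-bound genes, SMAD2 and SKIL, lay below the 5.87-fold median for genes with ETS1. Their ETS1 pileups were nonetheless near the middle of ETS1 regions, above 49.18% and 51.97% of them.

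The other 49 genes of the wider pathway lay near the shares of all genes. ETS1 was at the start of 7 (14.3%, against 19.0% of all genes) and RUNX1 at that of 25 (51.0%, against 47.2%), and all 7 had both. By role, ETS1 and RUNX1 were at 0 and 2 of 10 ligand and activation genes, 0 and 4 of 9 receptors, 1 and 4 of 7 SMADs and adaptors, 5 and 9 of 13 inhibitors and corepressors, and 1 and 6 of 10 target genes. Among activation genes FURIN, which encodes a protease that cleaves the TGF-beta precursor, had the highest RUNX1 fold (12.8 and 10.4). Among receptors it was ACVR1B, an activin receptor (9.86 and 10.01).

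SMAD6, an inhibitory SMAD like SMAD7, had 5.19 and 5.48-fold ETS1 and 10.4 and 10.3-fold RUNX1 at its start. FOXH1, a DNA-binding partner of SMAD2, had the highest RUNX1 fold of its group at an end (13.9 and 13.96). Among the inhibitors LDLRAD4, which encodes a membrane protein that restrains SMAD2 and SMAD3 activation, led for both factors, with 6.59 and 6.26-fold ETS1 and 52.7 and 52.1-fold RUNX1. Its window held 5 ETS1 and 22 RUNX1 regions, close to the numbers at SKI, without allowance for window length. Among targets the AP-1 gene JUNB led, with 15.1 and 12.6-fold ETS1 and 13.9 and 12.6-fold RUNX1. The 2 other TGF-beta ligand genes, TGFB2 and TGFB3, had neither factor at a start.

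By likeness of fold at the start, SMAD2 was closest to PPM1A, which encodes a phosphatase reported to act on SMAD2 and SMAD3. Likeness was the Euclidean distance of log2 fold over the 4 libraries, among 8 other genes of the pathway with a peak of every library at the start. PPM1A had 5.08 and 5.22-fold ETS1 and 22.5 and 23.6-fold RUNX1 (distance 0.36), and was followed by SKIL (0.59) and USP15 (1.40).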

How the data were processed

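Per the labels, CUT&Tag libraries of 6T-CEM cells were made with a commercial transposase kit, and each library came as 1 peak list. Per the submitters' processing notes, bcl2fastq 2.17, Bowtie2 and MACS3 3.0.0a6 were used with hg38. The sources used here do not give the call threshold, the mapping filter or how duplicates were handled. Per the peak names the authors called peaks in each library against IgG, with the depth scaling named SPMR. The authors' deposited lists give a fold over IgG (a ratio), −log10 p, −log10 q, a score that follows −log10 q and was not used, and the summit. Folds are the authors' own values and describe or rank peaks within a list.

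Peaks off chromosomes 1 to 22 and X were dropped (Python 3.11.15, numpy 2.4.6, pandas 2.3.3, scipy 1.17.1). Gene bounds and starts came from RefSeq tables of GRCh38.p14. 154 genes given in scaffold coordinates were left out, and 4008 of 19820 genes had no listed start, so either end was used for them. Exons are not in these tables. Pileups were solved as whole numbers from fold = (pileup + 1)/(IgG expectation + 1) and the Poisson p, within 0.01 or 5e-05 of −log10 p, whichever is larger, for 100% of peaks. Merging, overlap and pileup steps were tested on simulated data. The members, gene lists and tests were chosen with earlier results of these data known. Named genes are all members, the gene of the highest fold per role of the wider list, and neighbours that place a region. Alternatives were a −log10 q of at least 20, equal peak numbers, peaks of either library, a 10 kb window, 2 kb around starts, stricter overlaps, pairing and leaving out each library.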

Additional observations from a re-analysis of the deposited data

How the results depend on the processing

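The number of members with RUNX1 at a start was 6 to 9 under the alternatives run, lowest with equal peak numbers. Shares over all genes or all regions were not computed under the alternatives, so these counts and shares describe the members only. Leaving out each library in turn gave 11 to 13 ETS1 regions, 50 to 60 RUNX1 regions, 2 to 3 members with ETS1 and 8 to 9 with RUNX1 at the start, 100% to 100% of ETS1 regions over RUNX1 and 18.3% to 26% of RUNX1 regions over ETS1. The difference in peaks was then -47.5 to -43.5 and that in the share near coding starts 12.6 to 17.7 percentage points. The difference in peaks was -36.5 with −log10 q of at least 20, -2.5 with equal peak numbers, -34 in the 10 kb window and -28 without the SKI window, and the difference near coding starts 6.73 percentage points with −log10 q of at least 20, 24.7 in the 10 kb window and 29.8 without the SKI window. Without ETS1 library 2 the third member with ETS1 was SKI, and without RUNX1 library 2 the ninth with RUNX1 was TGFBR2. With −log10 q of at least 20, 5 ETS1 regions and 0 members with ETS1 at the start remained. With equal peak numbers there were 13 RUNX1 regions, the shares were 45.5% of ETS1 and 38.5% of RUNX1 regions, and the difference near coding starts was -4.28 percentage points (exact permutation p = 0.667). The 10 kb window held 6 ETS1 regions. Under reciprocal overlap the shares were 45.5% and 10%, and for summits within 100 bp 54.5% and 12%. Without the SKI window, an alternative chosen after seeing the data, there were 6 ETS1 and 30 RUNX1 regions. With summits in place of regions at starts, also chosen after, 2 members had ETS1 and 7 RUNX1, as the TGFB1 summit lies farther inside. Causes were not tested. With libraries paired by number (replicate block) the differences stayed -45.5 peaks and 15.2 percentage points, with an exact sign-flip p of 0.5, the smallest 2 pairs can give. Across 4953 shared regions, the log2 fold differences between library 1 and library 2 correlated between the factors with r = 0.023. This does not show whether libraries of the same number shared a culture or batch. Total read numbers are not known, and the part of depth in sites seen for RUNX1 and not for ETS1 was not tested.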

Other observations

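Of the 141 peaks in the 9 windows, 15 lay in no reproducible region: 3 of 25 ETS1 peaks and 12 of 116 RUNX1 peaks. At SMAD3 there were 4, all from RUNX1 library 2, of which 2 lay inside the gene shortly before its strongest region, at 6.68 and 9.67-fold. At SKI RUNX1 had 3 from library 1 and 1 from library 2, at 3.93 to 5.56-fold. The single such peak at SMAD2, from RUNX1 library 2, had 12.7-fold but a pileup of 33 over an IgG expectation of 1.67, and lay 22719 bp before the start.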
